A study of Rattus norvegicus with 12 samples.

Results

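Mast cell protease and receptor genes were followed across the small intestine of Belgrade rats. The set held 8 genes chosen by name: the proteases Mcpt1, Mcpt2, Cpa3, Tpsab1 and Tpsb2, the IgE receptor chains Fcer1a and Ms4a2, and the growth factor receptor Kit. All probe sets annotated to exactly 1 of these symbols were taken, which gave 8 probe sets for 7 genes, against 20826 probe sets for 14217 genes on the array. No probe set carried the symbol Mcpt2. The RefSeq gene table gives rMCP-2 and rMCP-II, the older names of mast cell protease 2, as synonyms of the gene with ID 29266, whose current symbol is Mcpt1 and whose synonyms also include rMCP-1. The Mcpt1 probe set is annotated to that gene ID. Mcpt1 is also listed as a synonym of the neighbouring gene Mcpt1l1, so which of the rat chymases this probe set measures is not settled here.

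The Belgrade rat carries a recessive mutation of the metal transporter gene Slc11a2, and homozygotes are known to be anaemic. Mucosal scrapes were taken from homozygotes (b/b) and heterozygotes (written +b or +/b in the labels) in the duodenum and the jejunum. Each of the 4 groups (+/b duodenum, b/b duodenum, +/b jejunum, b/b jejunum) held 3 arrays. There was no wild-type group, so every animal carried at least 1 b allele. Per the series' design text, 6 groups of rats, 3 of each genotype, gave RNA of both tissues, and each of the 12 arrays stands for 1 tissue of 1 group. How many rats made up a group, their age and their diet are not stated in the labels.

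Mast cells are granulated immune cells of the mucosa and of connective tissue. Their granules store serine proteases of the chymase and tryptase kind, the carboxypeptidase Cpa3 and histamine, all bound to the proteoglycan serglycin. The high-affinity IgE receptor, made of the chains Fcer1a, Ms4a2 and Fcer1g, triggers their release, and Kit signalling keeps the cells alive. In the rat gut, mucosal mast cells are known for a soluble chymase, rat mast cell protease II, which is shed during worm infection and anaphylaxis.

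Promoter sequences from RefSeq (build GRCr8) are shown for Mcpt1 and Cpa3 because these are the members whose duodenal signals did not overlap between the genotypes. Each line gives the 250 bases before the annotated start, 5′ to 3′ on the gene's own strand. Capitals mark the TATA box letters TATAAA and a pair of words known to be bound by GATA factors, AGATAA as well as its variant spelling TGATAA, searched on both strands. The Mcpt1 stretch lies on the plus strand at chr15:33841356-33841605 and the Cpa3 stretch on the minus strand at chr2:104673238-104673487.
Mcpt1: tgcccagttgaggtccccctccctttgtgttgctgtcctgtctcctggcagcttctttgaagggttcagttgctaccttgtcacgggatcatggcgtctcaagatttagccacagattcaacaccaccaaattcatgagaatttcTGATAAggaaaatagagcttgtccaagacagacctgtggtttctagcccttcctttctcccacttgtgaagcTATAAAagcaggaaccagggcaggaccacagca
Cpa3: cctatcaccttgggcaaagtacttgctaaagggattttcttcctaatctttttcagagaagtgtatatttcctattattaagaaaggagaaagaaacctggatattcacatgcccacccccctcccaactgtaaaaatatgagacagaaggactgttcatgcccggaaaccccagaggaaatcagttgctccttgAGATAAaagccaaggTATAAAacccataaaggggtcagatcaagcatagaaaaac

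Both promoters held 1 TATAAA word close to the start, beginning at position -33 in Mcpt1 and -40 in Cpa3. Mcpt1 also held TGATAA at -105 and Cpa3 AGATAA at -55. TATAAA together with either GATA word was found in 3 of the 6 members with a promoter sequence (Mcpt1, Cpa3 and Fcer1a) and in 3.47% of all 33469 promoters of the same length. Counted singly, TATAAA was in 3 of the 6 members and 12.9% of all promoters, AGATAA in 2 and 10.3%, and TGATAA in 1 and 7.97%. The words CANNTG (N is any base) and CATGTG were also searched. They were in 6 and 3 of the 6 members, and in 65.5% and 12.1% of all promoters. Mcpt1l1, which is not a member, held TATAAA at -32 and TGATAA at -103. Mcpt1 lies between its relatives Mcpt9 and Mcpt1l1 in the RefSeq gene order, and its 250 bases were 84.5% identical to those of Mcpt1l1 over 238 aligned bases. Tpsab1 and Tpsb2, which are also neighbours, shared 61.2% over 232. Which relatives each probe set also detects was not tested.

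Values are signals after each array was multiplied to a 2% trimmed mean of 500. Fold changes are on the scale log2(scaled signal + 16), which understates the change of dim genes. The limma test took in the 17694 probe sets whose mean over all 12 arrays reached a signal of 100, and a change counted as called at a Benjamini-Hochberg adjusted p under 0.05 over all of them. After scaling, array medians lay between 108.5 and 181.5. The highest belonged to b/b duodenum replicate 1, which also had the lowest median Spearman correlation to the other arrays (0.836, against 0.875 to 0.917). The +/b duodenum replicates 2 and 3 had been deposited at lower trimmed means and were multiplied by 9.69 and 3.95. Duodenum markers (Pdx1, S100g and Slc40a1) had a summed signal of 23580.4 to 59118.5 in the 6 duodenum arrays and of 1991.9 to 3936.8 in the jejunum arrays, with no overlap.

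Of the 8 member probe sets, 3 passed the signal filter: Mcpt1 (mean 944.2), Cpa3 (190.1) and Tpsb2 (122.9). The other 5 had means from 24.8 for Tpsab1 to 83.4 for Fcer1a. The mast cell label therefore rests here on 3 proteases, and none of the receptor genes among the members (Fcer1a, Ms4a2 and Kit) reached the filter. Signals of different probe sets depend on their probes and were not compared with each other. The files hold no detection calls, so whether the dim probe sets were above background is unknown.

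**Figure D1:**
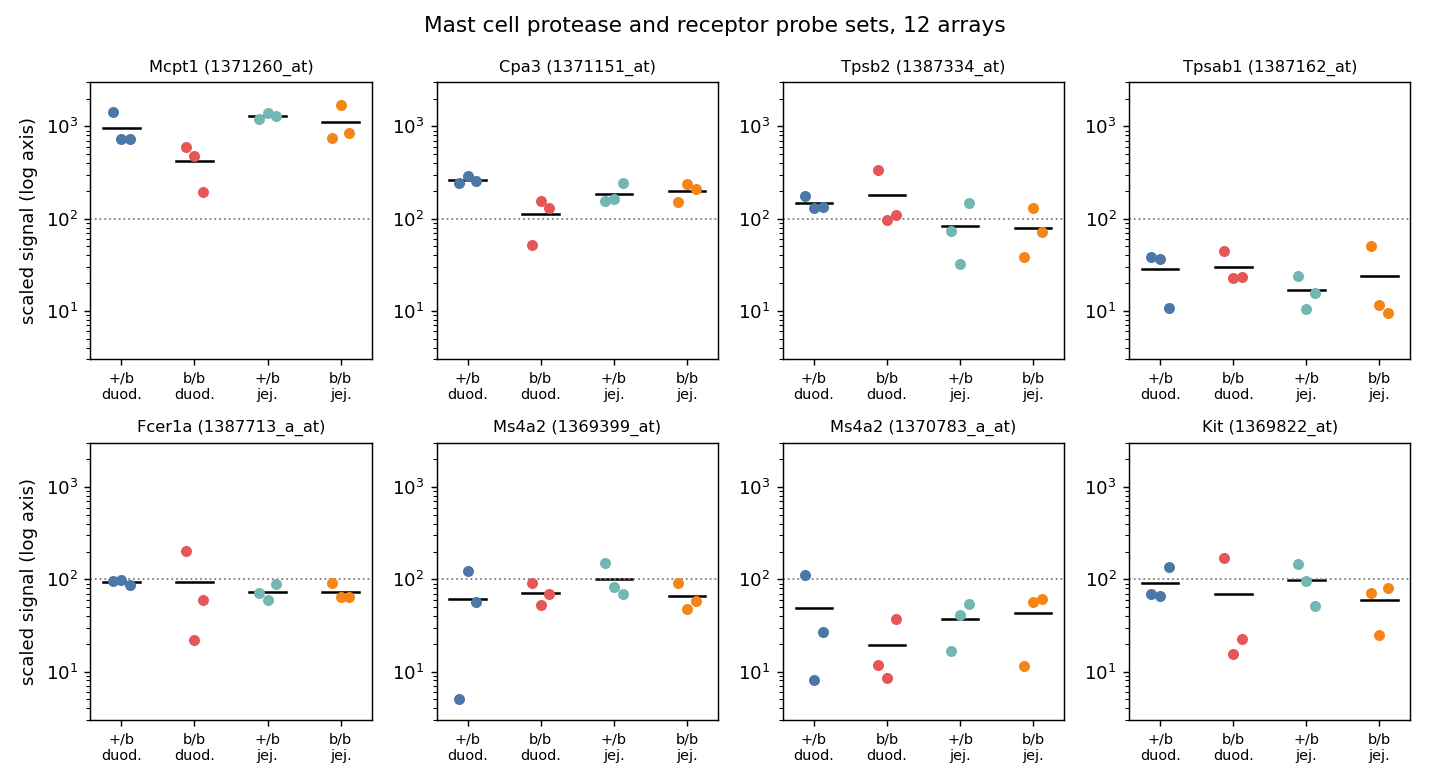
Scaled signal (log axis) of the 8 member probe sets on each array, by genotype and segment; bars are means of 3 arrays and the dotted line is the filter of 100. Mcpt1 has its lowest values in b/b duodenum (195.3 to 591.7), whereas Tpsab1, Fcer1a, both Ms4a2 probe sets and Kit scatter around or below the line.

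In the duodenum, every b/b array had lower signals of Mcpt1 and Cpa3 than every +/b array, but neither gene passed the test. The Mcpt1 probe set, annotated to a chymase, had signals of 1426.7, 734.7 and 737.7 in +/b rats and of 591.7, 472.6 and 195.3 in b/b rats. All 3 b/b arrays lay below all 3 +/b arrays. Its log2 change was -1.23 ± 0.39 (SE, n = 3 per group), a 95% interval of -2.08 to -0.39, or a 2.35-fold lower level (limma unadjusted p = 0.00723, adjusted p = 0.704). Cpa3, the carboxypeptidase of mast cell granules, had signals of 244.1, 288.3 and 257.3 in +/b and of 51.3, 154.1 and 130.3 in b/b rats. Its groups did not overlap either. The log2 change of Cpa3 was -1.23 ± 0.37, an interval of -2.02 to -0.45 (limma unadjusted p = 0.00467, adjusted p = 0.678).

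The limma fit thus called 0 of the 3 tested members in the duodenum, where 0.0396% of all tested probe sets were called. At an unadjusted p under 0.05, 2 members were lower, against 3.67% of the tested probe sets lower at that level, and the same 2 had lower groups without overlap, against 5.53%. For each of the 2 genes, 0.7% of the tested probe sets had a more negative change. The 3 members had a median change of -1.23, and all tested probe sets one of -0.05. Leaving out 1 array at a time gave -1.54 to -0.78 for Mcpt1 and -1.49 to -0.82 for Cpa3. The value nearest 0 of Mcpt1 came without b/b replicate 3, and that of Cpa3 without b/b replicate 1. Without both arrays deposited unscaled, Mcpt1 had -1.86 and Cpa3 -1.13, with 1 +/b array left that was assumed to vary like the other groups. In scrapes, fewer mast cells and less RNA of these genes per cell cannot be told apart.

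Tpsb2, the tryptase also known as Mcpt6, had no such difference. Its signals were 176.0, 129.8 and 135.1 in +/b and 335.2, 96.7 and 110.1 in b/b duodenum. The b/b array that stood apart held the highest value of all 12, and the other 2 lay below the +/b arrays. The log2 change of Tpsb2 was 0.08 ± 0.57 (interval -1.14 to 1.30), and it was -0.44 without that array. The same array, b/b duodenum replicate 1, held the highest of the 12 values for 3 of the 8 member probe sets, Tpsb2, Fcer1a and Kit, while its Cpa3 signal was the lowest of the 12. This array also had the highest median signal (181.5), and how many of all probe sets were highest on it was not counted.

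**Figure D2:**
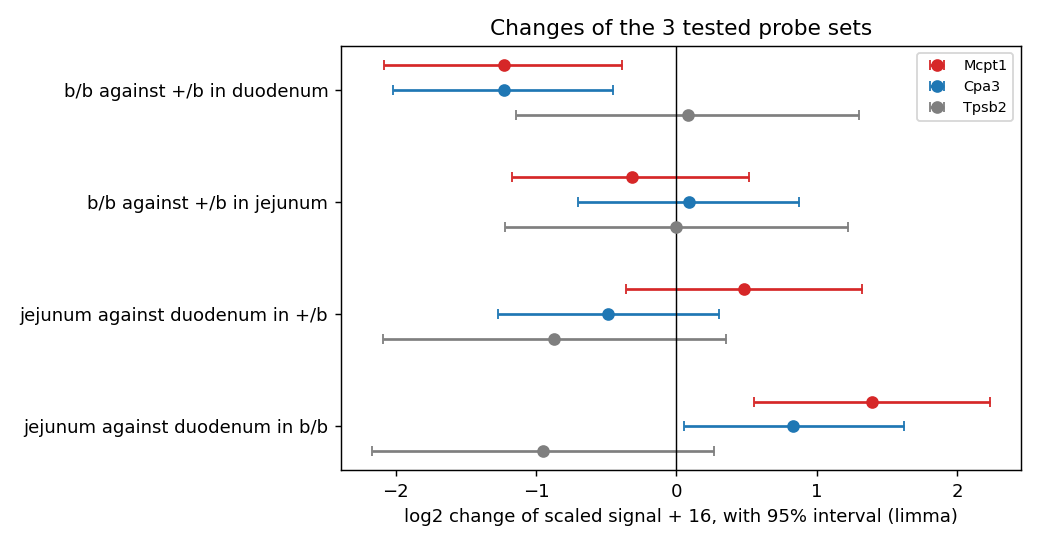
Log2 changes of the 3 tested probe sets with the 95% interval of the limma fit (4 groups of 3 arrays), for both genotype and both segment comparisons. Mcpt1 and Cpa3 both sit at -1.23 for b/b against +/b in the duodenum, and Mcpt1 at 1.39 for jejunum against duodenum in b/b rats.

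In the jejunum the genotypes overlapped for every member. Mcpt1 had signals of 1198.3, 1378.2 and 1292.0 in +/b and of 743.8, 1716.8 and 842.4 in b/b rats. The b/b arrays thus lay on both sides of the +/b arrays. The log2 change of Mcpt1 was -0.32 ± 0.39 (interval -1.17 to 0.52). Cpa3 had 154.6, 163.4 and 241.4 against 149.8, 239.3 and 207.3, a change of 0.09 ± 0.37 (-0.70 to 0.87). Tpsb2 had 72.5, 31.8 and 147.6 against 38.0, 129.7 and 72.1, a change of 0.00 ± 0.57 (-1.22 to 1.22). The limma fit called 0 of these 3, and 0.0339% of all tested probe sets. At an unadjusted p under 0.05 it had 0 members, against 1.34%, and 0 members had groups without overlap, against 7.9%.

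Between the segments of b/b rats, Mcpt1 was higher in the jejunum but missed the threshold in the main fit, which is unpaired. It narrowly passed in an alternative fit that pairs both segments of a group of rats. All 3 b/b jejunum signals (743.8 and above) exceeded all 3 b/b duodenum signals (591.7 and below), and 1 of 3 members had such higher groups without overlap, against 9.53% of all tested probe sets. The log2 difference was 1.39 ± 0.39 (interval 0.55 to 2.23), or 2.62-fold (limma unadjusted p = 0.00328, adjusted p = 0.183). Because both segments came from the same groups of rats, the pairing can be taken into the fit. Arrays were paired by replicate number, which the series design ties to the same rats. Correlations between the arrays could not tell shared rats from anything else shared by number. With the group of rats as a block, the change of Mcpt1 was 1.39 ± 0.32 and passed the threshold (limma adjusted p = 0.0453), so that 1 of 3 members was called higher there, against 1.18% of all tested probe sets. Without the block 0 of 3 were called, against 0.763%, and 2 of 3, Mcpt1 and Cpa3, were higher at an unadjusted p under 0.05, against 6.26%. Without 1 array at a time the change of Mcpt1 ran from 0.93, without b/b duodenum replicate 3, to 1.70, without b/b duodenum replicate 1 (limma adjusted p from 0.07 to 0.615, without the block).

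Within each b/b group of rats, the Mcpt1 log2 difference of jejunum minus duodenum was 0.32, 1.83 and 2.02. In the +/b groups it was -0.25, 0.89 and 0.80, which gave 0.48 ± 0.39 for the segment change in +/b rats (interval -0.36 to 1.32). The jejunum was higher in all 3 b/b groups and in 2 of 3 +/b groups. The Mcpt1 levels were highest in +/b jejunum (1289 ± 90.0, SD, n = 3), followed by b/b jejunum (1101 ± 536) and +/b duodenum (966 ± 399), and lowest in b/b duodenum (420 ± 203). Neighbours among the first 3 groups overlapped, whereas the 3 b/b duodenum values lay below the other 9.

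Cpa3 had segment differences of opposite sign in the genotypes, and neither passed the test. In +/b rats its jejunum minus duodenum difference was -0.61, -0.76 and -0.09 on the log2 scale in the 3 groups of rats, and it was the 1 of 3 members with lower jejunum values without overlap, against 4.71% of all tested probe sets. In b/b rats it was 1.30, 0.59 and 0.61. The fitted changes were -0.49 ± 0.37 in +/b (limma adjusted p = 0.956) and 0.83 ± 0.37 in b/b rats (unadjusted p = 0.0392, adjusted p = 0.468 in limma). Without b/b duodenum replicate 1, which stood apart and held the lowest Cpa3 signal, the b/b value was 0.42. The difference of the genotype effects, jejunum minus duodenum, was 1.32 ± 0.52 for Cpa3 (interval 0.21 to 2.43, limma unadjusted p = 0.0233, adjusted p = 1), and 0.91 without that array. For Mcpt1 it was 0.91 ± 0.56 (-0.28 to 2.10) and for Tpsb2 -0.08 ± 0.80 (-1.80 to 1.64). The Mcpt1 value was 0.45 without b/b duodenum replicate 3, 0.54 without b/b jejunum replicate 2 and 0.60 without +/b duodenum replicate 1. That interaction called 0 of 3 members in limma and 0% of all tested probe sets. At an unadjusted p under 0.05 there was 1 member, against 1.73%.

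Tpsb2 had segment differences below 0 in both genotypes, with -0.87 ± 0.57 in +/b and -0.95 ± 0.57 in b/b rats, jejunum minus duodenum (limma adjusted p = 0.942 and 0.656). Within the groups of rats its sign was mixed, with -1.12, -1.61 and 0.11 in +/b and -2.7, 0.37 and -0.52 in b/b rats. Without b/b duodenum replicate 1 the b/b value of Tpsb2 was -0.43. Its segments overlapped in both genotypes. In +/b rats limma called 0 of the 3 members between the segments, against 0.0565% of all tested probe sets, and had 0 at an unadjusted p under 0.05, against 5.36%. Over the 12 arrays the log2 signals of Mcpt1 and Cpa3 correlated at r = 0.43, and their deviations from the group means at -0.18. Tpsb2 had r = -0.12 with Mcpt1, and 0.54 for the deviations, which have the opposite sign. With Cpa3 it had -0.21, and -0.17 for the deviations. These 12 points share groups of rats and array scaling, and are given as a description.

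**Figure D3:**
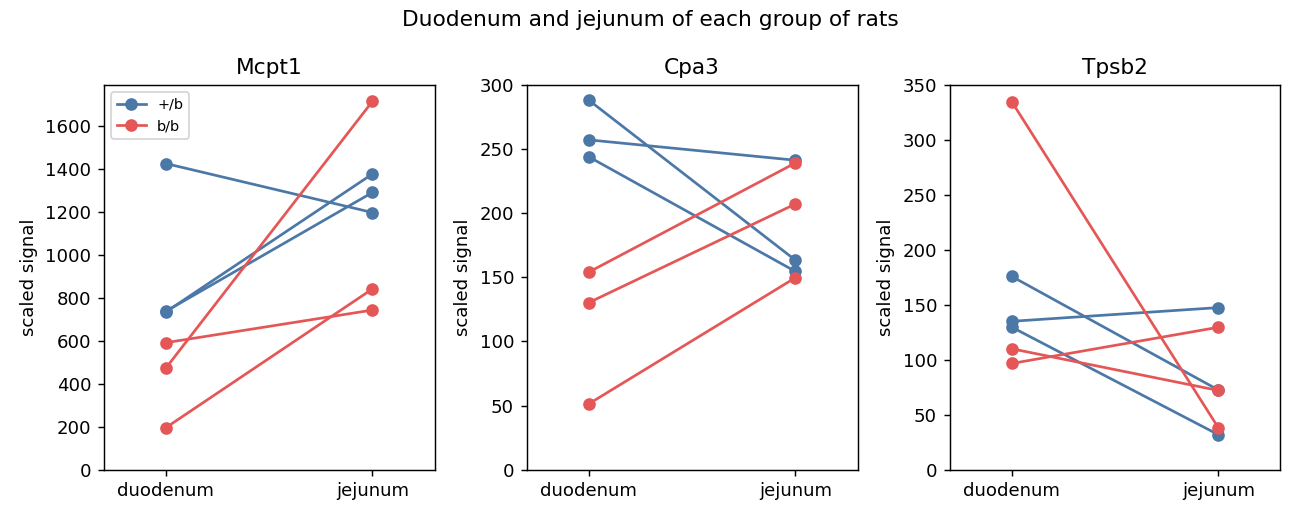
Scaled signal of Mcpt1, Cpa3 and Tpsb2 in the duodenum and jejunum; each line joins both arrays of 1 group of rats, 3 per genotype. All 3 b/b lines of Mcpt1 and Cpa3 go up, all 3 +/b lines of Cpa3 go down, and the lines of Tpsb2 cross.

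Fcer1a, Ms4a2, Kit and Tpsab1 had mean signals below the filter. Fcer1a, the IgE-binding chain, ranged from 21.9 to 200.7 over the 12 arrays, with both extremes in b/b duodenum. Kit, the stem cell factor receptor that interstitial cells of Cajal also carry, ranged from 15.4 to 168.9, again with both extremes in b/b duodenum. The Ms4a2 probe sets, for the signal-amplifying chain, ranged from 5.0 to 150.7 and from 8.2 to 111.6. They disagreed within +/b duodenum, where replicate 1 was lowest on the first (5.0) and highest on the second (111.6). Tpsab1, the tryptase also known as Mcpt7, stayed between 9.4 and 50.6. Fitted without the filter, these 5 probe sets had log2 changes of -0.76 to 0.52 in the duodenum and -0.61 to 0.16 in the jejunum for b/b against +/b. Their groups overlapped in all 4 comparisons. The limma fit without the filter called 0 of the 5 in each of the 5 contrasts, with 0 at an unadjusted p under 0.05. Among all 31042 probe sets it called 0.0226% for the genotypes in the duodenum, where 5.45% had an unadjusted p under 0.05 and 8.29% groups without overlap. For the genotypes in the jejunum these shares were 0.0161%, 1.97% and 8.22%. For the segments they were 0.0548%, 4.85% and 10.1% in +/b and 0.422%, 7.2% and 12.1% in b/b rats. For the interaction 0% were called and 2.42% had an unadjusted p under 0.05.

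Of 18 other mast cell and basophil protease genes 8 had a probe set and 2 passed the filter, Mcpt9 and Gzmb, and 0 were called in any comparison. Mcpt9, a chymase relative that lies beside Mcpt1 in the genome, had 450.0, 399.4 and 449.8 in +/b duodenum and 934.8, 649.4 and 452.8 in b/b duodenum. The b/b values all lay above the +/b values, the lowest by a small margin, with a change of 0.57 ± 0.26 (limma unadjusted p = 0.0482, adjusted p = 0.789). Of the 17694 tested probe sets, 443 were higher there at an unadjusted p under 0.05 in limma. In +/b rats its jejunum signals (842.5 to 1068.2) lay above its duodenum signals, a difference of 1.07 ± 0.26 (limma adjusted p = 0.335). Among all 31042 probe sets, 8.29% and 10.1% had groups without overlap in either direction in these comparisons. Gzmb, a granzyme that cytotoxic lymphocytes are also known to express, had 0.05 ± 0.26 in the duodenum on its brightest probe set. A dimmer Gzmb probe set disagreed, with 0.94 ± 0.44 (limma unadjusted p = 0.0494, adjusted p = 0.789). Mcpt1l1, for which RefSeq lists the names Mcpt1, rMCP-1 and rMCP-I, ranged from 1.6 to 69.3 and was not tested.

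On their brightest probe sets, genes of granules and mediators were not called in any comparison (0 of 10 tested, of 13). At an unadjusted p under 0.05, 2 of the 10 had lower signals in b/b duodenum, against 3.67% of all tested probe sets. Srgn, which encodes the granule proteoglycan serglycin and is also expressed in other blood cells, had 1290.6, 1552.9 and 1740.7 in +/b and 966.5, 998.8 and 1091.1 in b/b duodenum, a change of -0.57 ± 0.21 (limma adjusted p = 0.788). Ptgs1, a prostaglandin synthase, had -0.63 ± 0.28 (limma adjusted p = 0.789). Both had lower b/b groups without overlap, against 5.53% of all tested probe sets. Alox5ap, the activator of 5-lipoxygenase, had -0.91 ± 0.44 with overlap, and the list's median was -0.01. In b/b rats Srgn had 1637 ± 417 in the jejunum and 1019 ± 64.7 in the duodenum, a difference of 0.65 ± 0.21 (limma unadjusted p = 0.00866, adjusted p = 0.28). Hdc, the histamine-forming enzyme, did not pass the filter. Rab27a, which helps granules to dock, had 0.43 ± 0.20 between the b/b segments on its brightest probe set. It was called there on a dimmer one (1.18 ± 0.24, limma adjusted p = 0.0344), against 0.763% of all tested probe sets. That probe set was named after its values were seen. Another Rab27a probe set had 0.85 ± 0.36 (limma unadjusted p = 0.0354, adjusted p = 0.45).

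IgE receptor signalling genes had median changes between the genotypes of -0.02 in the duodenum and -0.06 in the jejunum over 10 tested of 12 and 0 called. Fcer1g, the receptor's shared signalling chain, had -0.04 ± 0.20 in the duodenum at a signal of 920 to 937 per group. Syk, the kinase that acts next, had 0.45 ± 0.19 in the jejunum (limma unadjusted p = 0.03, adjusted p = 1) and -0.13 ± 0.19 in the duodenum. Gab2, an adaptor, had the largest change of the list in the duodenum, 1.28 ± 0.77, with overlap.

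Genes of mast cell growth and homing passed the filter in 5 of 17 cases and 0 were called. Il33, an epithelial alarmin that activates mast cells, had 1.50 ± 0.65 in b/b against +/b duodenum (limma unadjusted p = 0.0379, adjusted p = 0.789), with overlap. Kitlg, the ligand of Kit, had -0.36 ± 0.26, the integrin Itgae -0.31 ± 0.26 and the transcription factor Gata2 -0.09 ± 0.52. Type 2 immunity genes passed in 4 of 13 cases, 0 called, with a median of -0.12. Il4, Il5 and Il13 were all below the filter. Clca1, a goblet cell gene induced by interleukin 13, was bright in both genotypes and had -0.29 ± 0.39. A dimmer Clca1 probe set had -0.54 ± 0.25 (limma unadjusted p = 0.0471, adjusted p = 0.789). Arg1 had -0.35 ± 0.32.

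**Figure D4:**
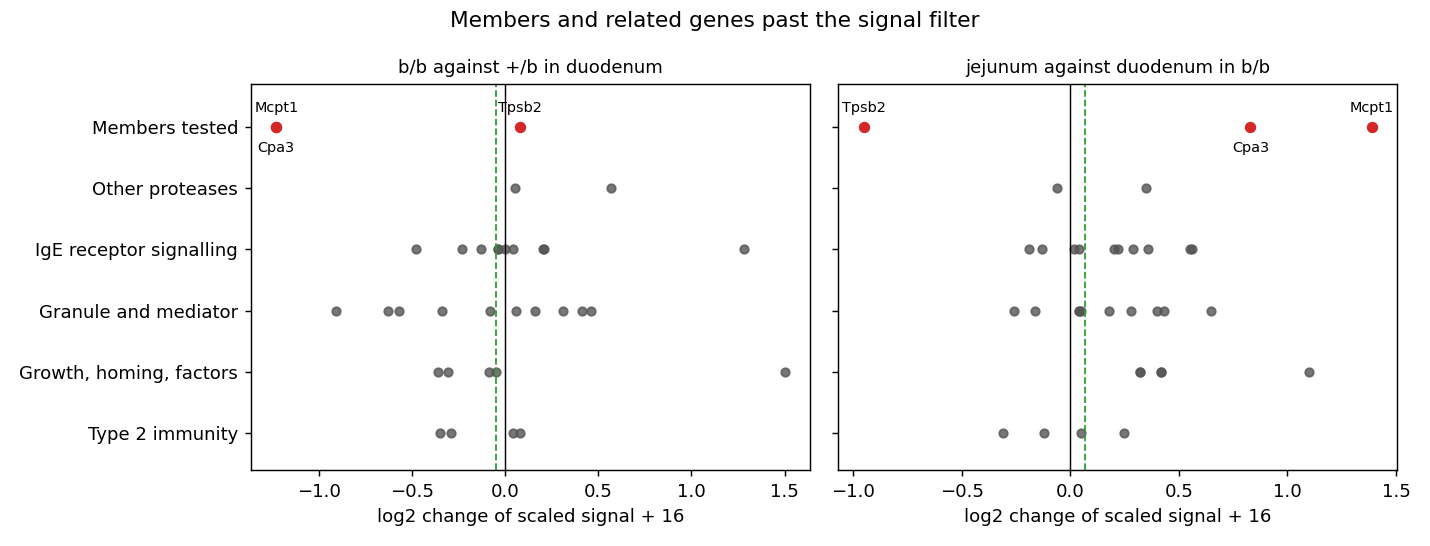
Log2 changes of the 3 tested members (top row) and of genes of 5 related lists past the signal filter, each dot 1 gene on its brightest probe set, in b/b against +/b duodenum and in b/b jejunum against duodenum; the dashed line is the median of all tested probe sets. Mcpt1 and Cpa3 lie to the left of every related gene in the duodenum, and Mcpt1 to the right of every related gene in the segment comparison.

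Marker levels of other cells are given beside the duodenum values of Mcpt1 and Cpa3, in which their part was not tested. Of these lists, the blood markers were the one with a called gene between the genotypes in the duodenum. In b/b against +/b duodenum, 4 of 5 crypt markers were below 0, with a median of -0.96 and summed signals of 1896.6 to 2923.8 against 2921.6 to 5657.3. At an unadjusted p under 0.05 in limma, 2 of the 5 were lower, against 3.67% of all tested probe sets. These were Ascl2 (-1.64 ± 0.42, limma unadjusted p = 0.00163, adjusted p = 0.654) and Slc12a2 (-1.04 ± 0.28, limma unadjusted p = 0.00213, adjusted p = 0.66). The crypt marker above 0 was Axin2 (0.14 ± 0.34). Blood markers summed to 12590.0 to 17719.5 against 1931.0 to 3540.8, with 1 of 3 tested called higher. Smooth muscle markers were below 0 in 7 of 8 cases (median -0.27, sums of 2439.0 to 2861.9 against 2561.4 to 4315.5). Macrophage markers were below 0 in 4 of 6 cases (median -0.17, sums of 5341.9 to 9821.4 against 7247.3 to 14828.9). Lyz2 made up most of each of these sums (3217.3 to 7733.3 in b/b, 5171.7 to 12178.3 in +/b). T cell markers (median -0.07) and plasma and B cell markers (median -0.11) had overlapping sums. Exocrine pancreas markers reached a sum of 147388.7 in +/b duodenum replicate 2, the array multiplied by 9.69, and had a median of -0.82 with that array included. Without that array the duodenum change was -1.39 for Mcpt1 and -1.17 for Cpa3. Enterocyte markers were below 0 in 6 of 6 cases, with a median of -0.29 and sums of 132021.8 to 528612.9 against 186210.4 to 381245.6. Of the basophil and eosinophil markers, 2 of 7 passed the filter, and the eosinophil granule genes Prg2 and Epx did not (median -0.35, sums of 413.4 to 1003.0 against 445.5 to 676.0).

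Between the b/b segments crypt markers had a median of 1.09 (sums of 3608.1 to 4635.6 in the jejunum), macrophage markers 0.39 with 6 of 6 above 0 (11776.5 to 23758.6), and smooth muscle markers 0.42 with 6 of 8 above 0 (2587.2 to 4530.8). At an unadjusted p under 0.05 in limma, 3 of 5 crypt markers were higher, against 6.26% of all tested probe sets. These were Slc12a2 (1.19 ± 0.28), Lgr5 (1.71 ± 0.67) and Ascl2 (1.09 ± 0.42), while Smoc2 had 0.21 ± 0.30 and Axin2 -0.36 ± 0.34. The part of these lists in the Mcpt1 value was not tested. Most of the macrophage sum came from Lyz2 (9343.6 to 19855.3 in b/b jejunum), which had 1.67 ± 0.42 between the b/b segments. The other tested macrophage markers ran from 0.01 for Cd14 to 0.57 for Csf1r. Of 6 interstitial cell markers 4 passed the filter. Between the b/b segments 1 of them was called, Elovl6, a fatty acid elongase not particular to these cells, which was lower in the jejunum (-1.67 ± 0.26, limma adjusted p = 0.00668). The chloride channel Ano1 had 0.57 ± 0.36 there. Between the genotypes Ano1 had -0.44 ± 0.36 in the duodenum and 0.47 ± 0.36 in the jejunum.

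The genes most like Cpa3 over the 12 arrays were Zfp623 (r = 0.92), Ripor2 and Cdpf1 (0.91 each), Wdr47 (0.90), Sirpa, Ift43 and Colec12 (0.89 each) and Cops2, Ift74 and Ube2h (0.88 each). They were picked for following Cpa3 over these arrays, so a low level in b/b duodenum is part of the choice. Sirpa, a receptor of myeloid cells, had 284 ± 35.7 in +/b and 109 ± 37.3 in b/b duodenum. Taking Mcpt1 as the reference instead, which was chosen after the values were seen, gave Mdfic (0.96), Mpeg1 (0.95), Taf1 and Nup88 (0.93 each) at the top. Mpeg1, a gene of macrophages, had 1378 ± 66.3 in +/b and 931 ± 139 in b/b duodenum. These genes were likewise picked for following Mcpt1. Group values are given only for Sirpa and Mpeg1, which do not stand for the other genes picked. Of the macrophage markers, 4 of 6 were below 0 in b/b against +/b duodenum, and Cd68 (0.38 ± 0.39) and C1qb (0.22 ± 0.31) were above. The 10 genes nearest to Cpa3 and the 10 nearest to Mcpt1 shared 0.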

How the data were processed

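The authors deposited 1 signal intensity per probe set on a linear scale, from an Affymetrix rat array, for 12 arrays. Per the submitters' processing notes, 10 of these used MAS5, and neither its version nor its settings are stated. Of 31099 probe sets, 57 controls were left out. Genes come from the platform annotation, and 436 probe sets with several genes and those with none were named nowhere.

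Tests used limma 3.58.1 in R 4.3.3, with 4 group means over all 12 arrays, eBayes with an intensity trend, two-sided p-values and Benjamini-Hochberg adjustment over 17694 probe sets. The fits were checked on simulated data. P-values measure the spread between groups of rats; the number of arrays limits the precision. The main segment fits leave out the pairing. Same-numbered duodenum and jejunum arrays, which the series design ties to the same rats, deviated together (correlations of 0.16 to 0.38). Numbers across genotypes mark different rats (duodenum -0.06 to 0.16, jejunum 0.12 to 0.42). The jejunum range across genotypes was as high, so these correlations cannot tell shared rats from anything else shared by number.

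Members and lists were chosen with earlier results of these data known. Named genes are all members, called list genes or those of smallest p, and the 10 genes nearest to Cpa3, which stood in for Mcpt2. Other named genes, such as Fcer1g and those below the filter, were picked after their values were seen. Lists of related genes use each gene's brightest probe set. Alternatives covered the pseudocount, filter, scaling, trend, array weights, samples fitted, replicate block and single arrays left out.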

Additional observations from a re-analysis of the deposited data

Results flagged for a closer look

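The jejunum minus duodenum difference of Cpa3 was below 0 in all 3 +/b groups of rats and above 0 in all 3 b/b groups. In the +/b group of rats numbered 3 it was -0.09, close to no difference. How many of all tested probe sets had such a split was not counted. The difference between the genotypes was 1.32 ± 0.52 on the log2 scale (limma unadjusted p = 0.0233, adjusted p = 1 over all tested probe sets), and it did not pass the threshold. With the group of rats as a block it was 1.32 ± 0.44 (limma adjusted p = 0.965). Without b/b duodenum replicate 1 it was 0.91 ± 0.41 (limma adjusted p = 0.984).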

How the results depend on the processing

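The count of members called stayed at 0 for both genotype comparisons and the interaction under every alternative run. Between the b/b segments it was 1 (Mcpt1) with the replicate block fixed (1.39, limma adjusted p = 0.0453) or random (adjusted p = 0.0468) and with array weights (1.56, adjusted p = 0.0193 in limma), and 0 in all fits without 1 array. The fixed block, random block and array weights fits also called more of all 17694 tested probe sets (431, 351 and 642, against 135 in the main fit). The block changed no other call of a member. For the genotype comparisons the fixed block was the replicate number, which joins different rats, and the random block was the group of rats. The +/b segments gave 1 (Mcpt1, 2.12, limma adjusted p = 0.0458) without rescaling, which moved the median of all tested probe sets to 1.60 there and to 1.51 in the duodenum genotype comparison. Between the +/b segments the fit without rescaling called 8673 of all 17694 tested probe sets, against 10 in the main fit.

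Without rescaling the signs turned for Mcpt1 (0.41) and Cpa3 (0.26) in the duodenum, for Cpa3 (1.01) and Tpsb2 (0.43) between the +/b segments, and for Mcpt1 (-0.73) and Cpa3 (-0.18) in the interaction; each duodenum value lay below that median. Without both arrays deposited unscaled, Mcpt1 had -0.15 between the +/b segments and Tpsb2 -0.17 in the duodenum and 0.17 in the interaction. With array weights Tpsb2 had -0.36 and 0.79 there. In the jejunum Tpsb2 had -0.01 with a pseudocount of 64 and -0.03 with median centring. The cause of these turns was not tested. Leaving out 1 array gave Tpsb2 -0.44 to 0.38 in the duodenum, -0.44 to 0.44 in the jejunum and -0.52 to 0.44 in the interaction, and Cpa3 -0.05 to 0.27 in the jejunum. A filter at 200 left Cpa3 and Tpsb2 untested. Signals of the 5 dim probe sets limit what can be said of receptors.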
